A study of Mus musculus with 6 samples.

Results

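Rb1, Rbl1, Rbl2, Cdkn1b, Cdkn2a, Cdkn2b, Cdkn2c, Cdkn2d, Ccnd1 and Ccnd2, a group of genes that control the G1 phase of the cell cycle, were followed by RNA-sequencing in whole embryonic mouse hearts. The genes were chosen by name, as pocket protein, CDK inhibitor and cyclin D genes, with earlier results of these data known. They are 10 of the 45792 genes in the count table. The study asked how gene expression differs when the chromatin remodeler gene Ino80 is deleted in endothelial cells. Whole hearts were taken at embryonic day 13.5 from 3 embryos labelled wild-type and 3 labelled Tie2Cre INO80 flox/flox, all given as strain C57BL/6, whereas the methods place the transgenic mice on a mixed background. The study counts any genotype other than Tie2Cre;Ino80 fl/fl as control. Its general methods bred Cre males to Ino80 fl/fl females, a cross in which every embryo inherits a floxed allele. For RNA-sequencing the methods instead name Tie2Cre;Ino80 fl/fl pregnant females as the source of the embryos. The label wild-type may therefore stand for floxed or heterozygous embryos. In the mutant genotype, written Tie2Cre;Ino80 fl/fl in the study, both Ino80 alleles carry an exon flanked by loxP sites, and Cre is driven in endothelial cells, their endocardial kin and the cells that descend from them. Cardiomyocytes, the bulk of the tissue, keep Ino80, and the labels state no other allele, agent or treatment. Sex was not determined, and the methods speak of several litters with littermates as controls, without saying which of these hearts shared a litter.

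Cells in G1 either commit to another round of division or stay out of the cycle. Cyclin D proteins bind CDK4 or CDK6, and the active kinase phosphorylates the pocket proteins pRB, p107 and p130, encoded by Rb1, Rbl1 and Rbl2. In their unphosphorylated state the pocket proteins hold E2F factors and keep S-phase genes silent. INK4 proteins bind CDK4 and CDK6 and block cyclin D, whereas CIP/KIP proteins such as p27, encoded by Cdkn1b, act on the cyclin E and cyclin A kinases. In the embryonic heart these regulators act while cardiomyocytes are still dividing, and mice that lack all D-type cyclins die in gestation with heart defects.

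Promoter sequences of 7 of the 10 genes were matched by symbol in RefSeq (GRCm38.p6), as 9 windows from 250 bases before to 50 bases after a start site. Each window was searched on both strands for E2F letters (TTTCCCGC, TTTGGCGC, TTTCGCGC or TTTGCCGC), the letters TTTGAA of the CHR element that pocket protein complexes can use, and the GC box GGGCGG, and no matches overlapped. The stretches below hold the 250 bases before the start site, written 5′ to 3′ on the gene's strand, with matches in capitals. They are shown because Rbl1 and Rbl2 carried different cell cycle letters and because Cdkn2c, the gene with the lowest fold change of those tested, held GC boxes at its upstream start site and none of the other letters.
Rbl1, chr2:157204535-157204784, minus strand: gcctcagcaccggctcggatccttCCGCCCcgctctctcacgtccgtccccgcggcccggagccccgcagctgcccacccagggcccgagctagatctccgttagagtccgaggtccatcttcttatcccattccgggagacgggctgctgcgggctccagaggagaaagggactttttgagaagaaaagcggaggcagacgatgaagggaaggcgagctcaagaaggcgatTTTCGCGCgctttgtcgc
Rbl2, chr8:91069807-91070056, plus strand: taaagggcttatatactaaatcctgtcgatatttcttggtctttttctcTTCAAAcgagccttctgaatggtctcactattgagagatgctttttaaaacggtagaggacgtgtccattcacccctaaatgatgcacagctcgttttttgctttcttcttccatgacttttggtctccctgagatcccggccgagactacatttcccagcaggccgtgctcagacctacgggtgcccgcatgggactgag
Cdkn2c, chr4:109666757-109667006, minus strand, the more upstream of its 2 start sites: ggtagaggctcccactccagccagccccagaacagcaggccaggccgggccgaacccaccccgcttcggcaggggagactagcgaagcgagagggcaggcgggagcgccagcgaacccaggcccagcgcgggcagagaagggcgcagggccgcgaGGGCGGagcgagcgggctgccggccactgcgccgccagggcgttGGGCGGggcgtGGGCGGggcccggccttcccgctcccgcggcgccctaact
The Rbl1 stretch held TTTCGCGC beginning 18 bases before the start site, and an E2F match was otherwise seen only at the upstream start site of Cdkn2a, with TTTCCCGC 99 bases before it. Such letters were present in 2.26% of all 32851 promoters of this length. The CHR letters lay 201 bases before the Rbl2 start site and 161 bases before that of Cdkn2b, against 17.9% of all promoters with a match. GC boxes were found in 8 of the 9 windows and in all 7 genes, against 35.7% of all promoters. A match is a run of letters and was not tested as a binding site.

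The libraries held 28948836 to 89675692 counted reads, and the deepest was mutant replicate 1. Levels are given as CPM (each count scaled to library size) with TMM factors, and groups were compared with edgeR's quasi-likelihood test over 17125 genes, adjusted by the Benjamini-Hochberg method. A positive log2 fold change means a higher level in the mutant-labelled group, and each is given with a standard error (SE). Ino80 itself, a check of the labels, measured 30.2, 31.6 and 32.7 CPM in the control-labelled group, against 36.5, 33.7 and 31.8 CPM in mutant-labelled hearts, a log2 fold change of 0.11 (SE 0.08, adjusted p = 0.47). Whole-heart Ino80 did not separate the groups. The deletion takes out an exon in the endothelial lineage, so a count over the whole gene in a whole heart checks little, and hearts are named by their labels. No gene passed an adjusted p of 0.05 with edgeR, while DESeq2, the other tool run, called 436 higher and 564 lower. Cardiomyocyte markers were abundant (summed 19610 to 24222 CPM in the control-labelled group, against 20020.5 to 20855 in mutant-labelled hearts), liver markers summed to at most 1.77 CPM, and the lung marker Nkx2-1 was at 0 in all 6 hearts. Of the 7 erythroid markers 5 were lower at an unadjusted p under 0.05 and 1 higher, beside 9.98% and 9.48% of all tested genes. Erythroid sums were 9247 to 39347 CPM in the control-labelled group, against 6336 to 11310 CPM in the mutant-labelled one. The sum of control replicate 3 was the highest. The embryonic globin gene Hbb-y went the other way, at 454, 42.6 and 155 CPM against 802, 1201 and 1127 CPM, without overlap (log2 fold change 2.26, adjusted p = 0.15). Over all tested genes 14.3% were apart in that direction. Sums over 6 cycling-cell markers were 1173 to 1236 CPM in the control-labelled group, against 1258 to 1286 CPM in the mutant-labelled one, without overlap. Of the 6 genes 1 was higher at an unadjusted p under 0.05, beside 9.48% of all tested genes. Endothelial sums (747 to 941 and 845 to 896 CPM), smooth muscle sums (1259 to 1449 and 1195 to 1416), epicardial and fibroblast sums (663 to 1121 and 776 to 1149), macrophage sums (27.5 to 39.6 and 38.1 to 38.7) and neural sums (5.52 to 7.52 and 4.99 to 6.93) overlapped between the groups. Within these lists DESeq2 called single markers, beside 2.52% of all genes called higher and 3.26% called lower. The markers were chosen for mention after their values were seen. The smooth muscle marker Myh11 was lower (log2 fold change -2.40, below 5 CPM in every heart, with overlap). Cnn1 of the same list (0.48), the epicardial marker Upk3b (0.57) and the cardiomyocyte marker Myh6 (0.48) were higher without overlap. Of these 4, edgeR called none. Myh6 did not stand for its list, as 2 of the 8 cardiomyocyte markers had positive and 6 negative log2 fold changes (median -0.14). Over all tested genes 49.7% were positive. The part of these cell populations in the values that follow was not tested.

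Most of the tested genes of the group that restrain G1 had lower estimates in mutant-labelled hearts, and both D-type cyclins had higher ones, but none passed the adjusted threshold. Outside the group, the CDK inhibitor genes Cdkn1c and Cdkn1a had log2 fold changes of opposite sign (0.85 and -0.67). Cdkn2a had too few counts for the test, which left 9 genes, of which 3 had positive and 6 negative log2 fold changes with a median of -0.11. Over all tested genes the median was -0.0017, and 49.7% had a positive value. With edgeR 0 of the 9 were called at an adjusted p under 0.05, as were 0% of all tested genes in either direction, and with DESeq2 0 were called as well, beside 2.52% of all genes called higher and 3.26% called lower. At an unadjusted p under 0.05 none had a higher level and 3 had a lower one (Rb1, Rbl2 and Cdkn2c), against 9.48% of all tested genes higher and 9.98% lower. In 2 of the 9, Rb1 and Rbl2, every mutant-labelled heart was below every control-labelled heart, against 12.8% of all tested genes apart in that direction, and no gene of the group was apart in the other direction, against 14.3% (27.1% of all tested genes were apart in either direction). No difference from all genes is read from shares of 9 genes. In whole hearts, fewer cells of a type and less RNA per cell cannot be told apart.

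**Figure D1:**
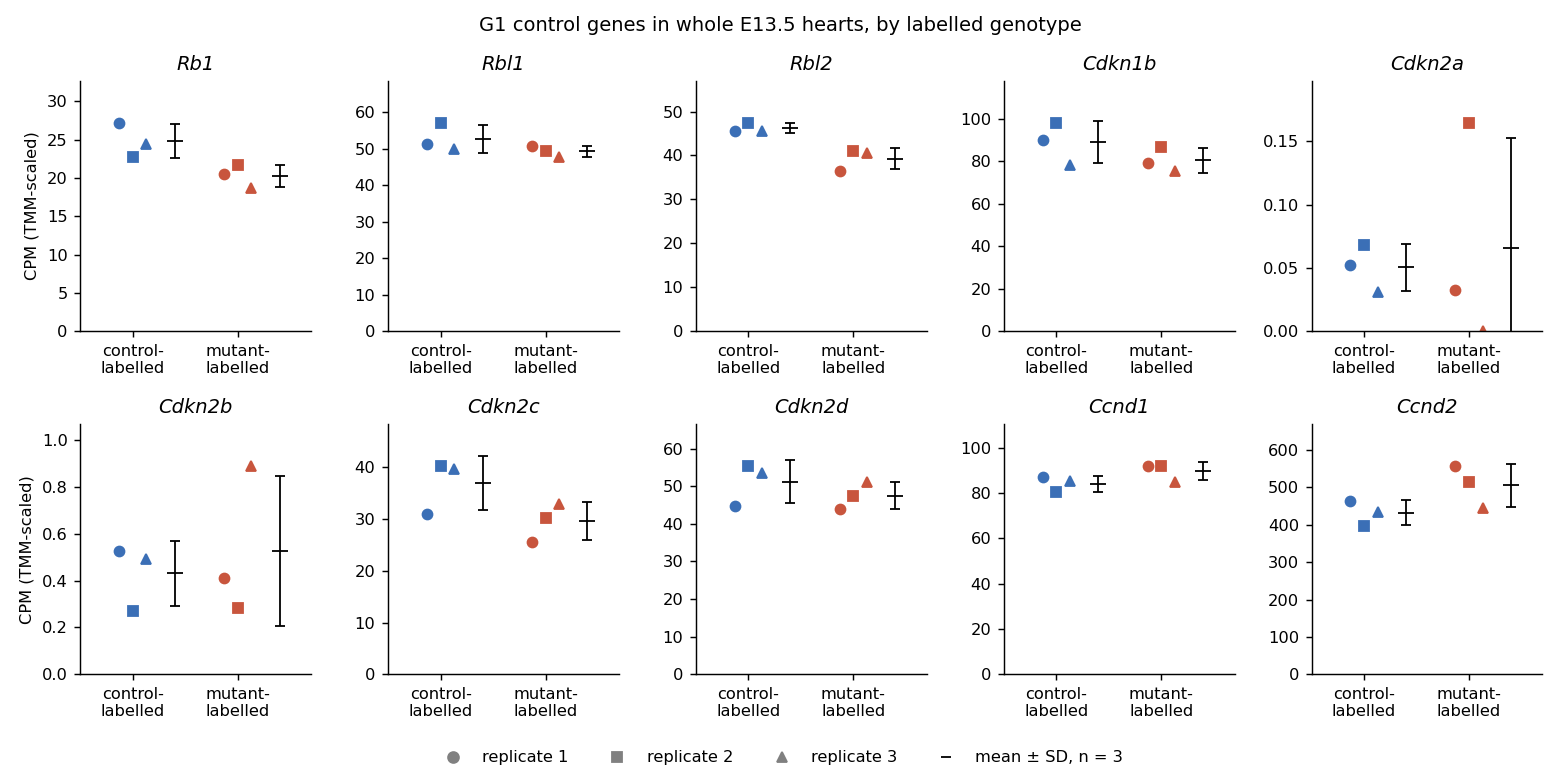
TMM-scaled CPM of each of the 10 genes in each heart, with the mean ± SD of 3 hearts beside the points. Every vertical axis starts at 0 and differs between genes, and the lower error bar of Cdkn2a in mutant-labelled hearts is cut off there. Control-labelled and mutant-labelled hearts are apart for Rb1 and Rbl2 and overlap for the other genes.

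The pocket protein genes were all well above the detection limit. Rb1 (ENSMUSG00000022105.6), which encodes the retinoblastoma protein, lies on the minus strand at chr14:73183673-73325822 (GRCm38). It measured 27.2, 22.8 and 24.4 CPM in the control-labelled group, against 20.5, 21.6 and 18.7 CPM in mutant-labelled hearts. The lowest control-labelled heart was above the highest mutant-labelled heart, though by little. Means were 24.8 ± 2.24 and 20.3 ± 1.45 CPM (SD, n = 3 each), a difference of -18.1% (95% confidence interval -30.0 to -4.36). On the log2 scale the fold change was -0.29 (SE 0.10), with an adjusted p of 0.18 in edgeR and 0.148 in DESeq2. In an exact two-sided permutation test of the 6 values p was 0.1, the smallest that 3 against 3 hearts can give. Leaving out 1 heart at a time gave log2 fold changes of -0.34 to -0.22.

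Rbl2 (ENSMUSG00000031666.12, plus strand, chr8:91070057-91123844), which encodes p130, the pocket protein best known in resting cells, gave the tighter separation. It measured 45.6, 47.5 and 45.5 CPM in the control-labelled group, against 36.5, 40.9 and 40.5 CPM in mutant-labelled hearts. No mutant-labelled heart reached the control-labelled range, and mutant replicate 1 was the lowest. The means of 46.2 ± 1.08 and 39.3 ± 2.43 CPM (SD, n = 3 each) differed by -15.0% (95% confidence interval -24.8 to -3.95). This gave a log2 fold change of -0.23 (SE 0.08), the adjusted p was 0.17 in edgeR and 0.129 in DESeq2, and the exact permutation p was again 0.1. Without mutant replicate 1 the log2 fold change was -0.18, the value nearest to 0 when hearts were left out.

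Rbl1 (ENSMUSG00000027641.11, minus strand, chr2:157145893-157204534) encodes p107, which is itself made under E2F control in cycling cells. Its level was 51.4, 57.1 and 49.8 CPM in the control-labelled group, against 50.7, 49.5 and 47.6 CPM in mutant-labelled hearts. The groups overlapped, and the highest value was that of control replicate 2. The log2 fold change of -0.098 (SE 0.08, 95% confidence interval -0.28 to 0.08) had an adjusted p of 0.50. Over the exons of Rb1 and Rbl2, genes on the opposite strand share bases with them. Rcbtb2 shares 8.11% and Lpar6 6.78% of Rb1 exon bases, and Aktip shares 9.17% and Gm45464 11.8% of Rbl2 exon bases, and the library kit does not mark strand. Aktip was at 33.7 ± 1.71 and 29.8 ± 1.27 CPM, with the groups apart and a log2 fold change of -0.17 (adjusted p = 0.27), whereas the log2 fold changes of Rcbtb2 and Lpar6 were 0.02 and 0.06. The part of shared reads in the Rb1 and Rbl2 values was not tested.

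Cdkn1b (ENSMUSG00000003031.12, plus strand, chr6:134920401-134925513), which encodes p27, measured 90.0, 98.0 and 78.4 CPM in the control-labelled group, against 79.2, 86.8 and 75.3 CPM in mutant-labelled hearts. The groups overlapped, with mutant replicates 1 and 2 inside the control-labelled range, and the log2 fold change was -0.14 (SE 0.10, 95% confidence interval -0.36 to 0.08, adjusted p = 0.43). Its CIP/KIP relatives, which are not of the chosen group, stood further apart between the groups. Cdkn1c, which encodes p57 and is an imprinted gene, measured 378, 263 and 274 CPM in the control-labelled group, against 520, 534 and 597 CPM in the mutant-labelled one, so that the groups did not overlap. Its log2 fold change was 0.85 (SE 0.14), with an adjusted p of 0.076 in edgeR and 9.3e-07 in DESeq2. Cdkn1a, which encodes the p53 target p21, was at 32.7, 28.3 and 44.0 against 19.8, 23.4 and 22.7 CPM, again without overlap. Its log2 fold change was -0.67 (SE 0.16), with an adjusted p of 0.10 in edgeR and 0.0028 in DESeq2. The estimates of the 3 CIP/KIP genes thus had both signs, and the differences between them were not tested.

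The INK4 genes fell into a pair that the heart expressed and a pair near the limit of detection. Cdkn2c (ENSMUSG00000028551.12, minus strand, chr4:109660876-109667189), which encodes p18, measured 30.9, 40.2 and 39.7 CPM in the control-labelled group, against 25.6, 30.3 and 32.8 CPM in mutant-labelled hearts. Control replicate 1 lay within the mutant-labelled range and the other control-labelled hearts above it. The means were 37.0 ± 5.25 and 29.6 ± 3.66 CPM (SD, n = 3 each), a difference of -20.1% (95% confidence interval -35.2 to -1.46). Cdkn2c had a log2 fold change of -0.32 (SE 0.13), with an adjusted p of 0.23 in edgeR and 0.174 in DESeq2. It moved to -0.44 (adjusted p = 0.081) without control replicate 1 and to -0.23 without mutant replicate 1.

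Cdkn2d (ENSMUSG00000096472.1, minus strand, chr9:21288410-21291407), which encodes p19INK4d, measured 44.7, 55.4 and 53.4 CPM in the control-labelled group, against 43.9, 47.4 and 51.1 CPM in mutant-labelled hearts. The groups overlapped and the log2 fold change was -0.11 (SE 0.10, 95% confidence interval -0.34 to 0.13, adjusted p = 0.57). Cdkn2b (ENSMUSG00000073802.4, minus strand, chr4:89306299-89311039), which encodes p15, had 20, 8 and 16 counts in the control-labelled group, against 38, 12 and 26 counts in the mutant-labelled one, or 0.272 to 0.889 CPM. The log2 fold change of 0.21 had a 95% confidence interval of -0.91 to 1.33, and it turned to -0.29 without mutant replicate 3 and to -0.015 without control replicate 2. Cdkn2a (ENSMUSG00000044303.6, minus strand, chr4:89274471-89294653), which encodes both p16INK4a and p19ARF from different first exons, had 2, 2 and 1 counts in the control-labelled group, against 3, 7 and 0 counts in the mutant-labelled one. For comparison, 3 counts were worth 0.0324 to 0.103 CPM depending on the library. A difference in Cdkn2a was not detectable at this depth, and a count over the whole gene cannot separate its products.

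The D-type cyclin genes had higher estimates in mutant-labelled hearts. Ccnd2 (ENSMUSG00000000184.10, minus strand, chr6:127125162-127152193) measured 464, 397 and 435 CPM in the control-labelled group, against 557, 515 and 445 CPM in the mutant-labelled one. Mutant replicates 1 and 2 were above all control-labelled hearts, but mutant replicate 3 was below control replicate 1. Means of 432 ± 33.6 and 506 ± 57.0 CPM (SD, n = 3 each) differed by 17.1% (95% confidence interval -1.25 to 38.8). The log2 fold change of 0.23 (SE 0.11) had an adjusted p of 0.28 in edgeR and 0.265 in DESeq2, and it was lowest at 0.15 with mutant replicate 1 left out and highest at 0.32 with mutant replicate 3 left out.

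Ccnd1 (ENSMUSG00000070348.4, minus strand, chr7:144929931-144939925) measured 87.1, 80.2 and 85.1 CPM in the control-labelled group, against 91.96, 91.9 and 85.1 CPM in mutant-labelled hearts. Mutant replicate 3 fell inside the control-labelled range. Ccnd1 had a log2 fold change of 0.092 (SE 0.07, 95% confidence interval -0.06 to 0.25, adjusted p = 0.47). A gene on the opposite strand, Oraov1, overlaps 23.4% of Ccnd1 exon bases, and its own log2 fold change was -0.09 (adjusted p = 0.57). Ccnd3, the remaining D-type cyclin gene and not of the chosen group, was at 257, 254 and 241 against 274, 278 and 312 CPM, without overlap, with a log2 fold change of 0.20 (adjusted p = 0.23).

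**Figure D2:**
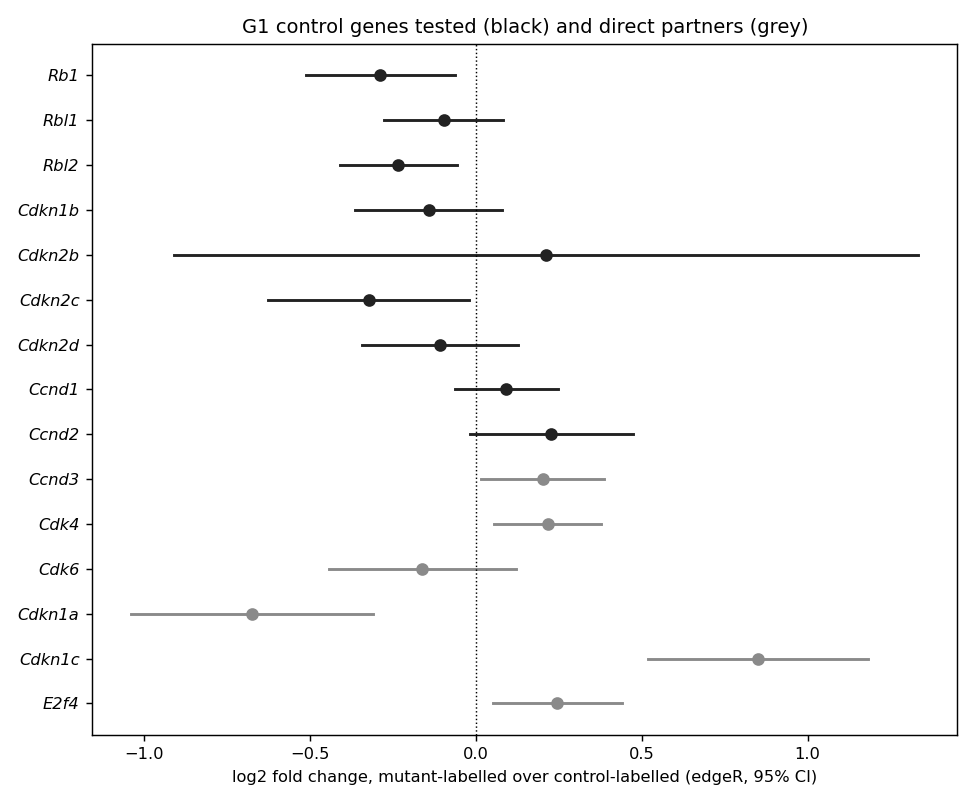
Log2 fold change (positive where the mutant-labelled group is higher) for the 9 tested genes of the group (black) and 6 direct partners (grey), with 95% confidence intervals from edgeR. The intervals of Rb1, Rbl2 and Cdkn2c lie below 0 before adjustment, that of Cdkn2b is the widest at -0.91 to 1.33, and Cdkn1a and Cdkn1c lie furthest from 0.

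Leaving out single hearts kept the sign of 8 of the 9 tested genes and turned that of Cdkn2b. Other small estimates moved as well. Without control replicate 2, log2 fold changes were -0.036 for Rbl1, -0.065 for Cdkn1b, -0.048 for Cdkn2d and 0.060 for Ccnd1. Cdkn1b moved to -0.22 without control replicate 3, and Cdkn2d to -0.20 without control replicate 1 and -0.054 without mutant replicate 1. The set of genes lower at an unadjusted p under 0.05 also depended on single hearts. Rb1 left it without control replicate 1 or mutant replicate 3, Rbl2 without mutant replicate 1, and Cdkn2c when any one of control replicates 2 and 3 or mutant replicates 1 and 2 was left out. Cdkn1b entered it without control replicate 3, and Rb1 alone was in it without mutant replicate 1. Mutant replicate 1, which had the largest library, held the highest or lowest value of the 6 hearts for 5 of the 9 genes, and control replicate 2 did so for 8. When all libraries were thinned to the size of the smallest, the log2 fold changes were -0.27 for Rb1, -0.24 for Rbl2 and -0.31 for Cdkn2c.

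**Figure D3:**
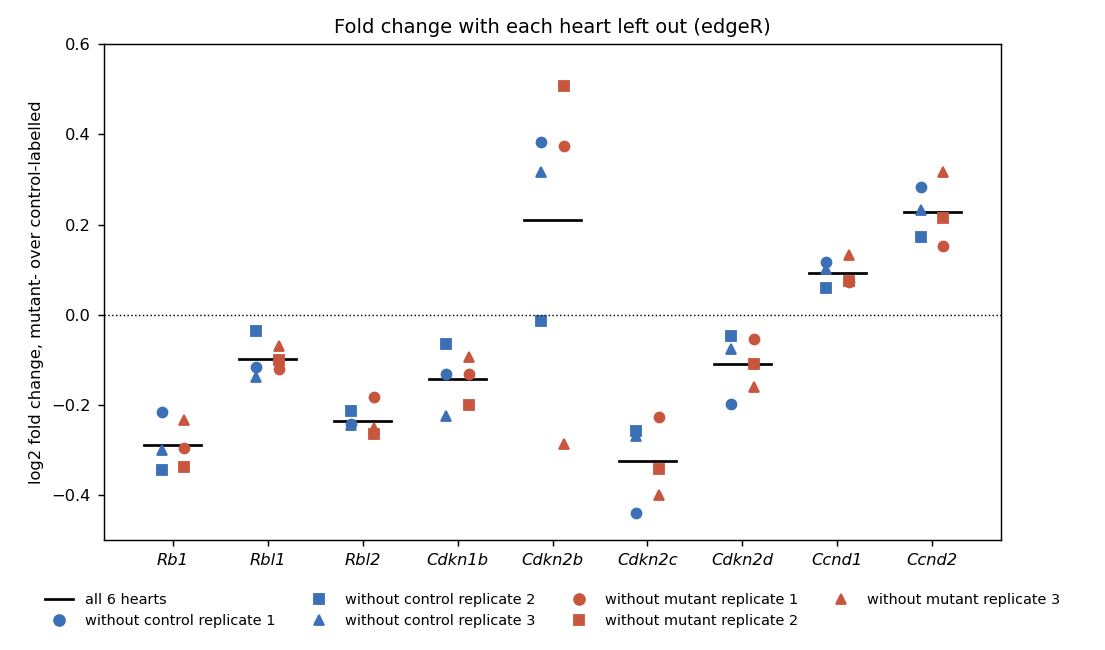
Log2 fold change (edgeR) of the 9 tested genes with all 6 hearts (black line) and with each heart left out (symbols). Cdkn2b crosses 0, from -0.29 to 0.51, and the signs of the other genes hold.

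Levels were compared between genes after division by the length of merged exons, as CPM per kb. In control-labelled hearts Ccnd2 was highest at 45.9 ± 3.57 CPM per kb (SD, n = 3), followed by Cdkn2d at 32.5 ± 3.62, Cdkn1b at 19.5 ± 2.17, Ccnd1 at 17.9 ± 0.747 and Cdkn2c at 13.8 ± 1.96. The pocket protein genes came next, in the order Rbl1 (8.80 ± 0.643), Rbl2 (6.11 ± 0.143) and Rb1 (4.12 ± 0.372). Cdkn2b stood at 0.310 ± 0.0992 CPM per kb, and Cdkn2a was last. Thus the abundant INK4 transcript was Cdkn2d, and the retinoblastoma gene was the lowest of its family. Mutant-labelled hearts gave the same order except that Ccnd1 (19.0 ± 0.838 CPM per kb) stood above Cdkn1b (17.7 ± 1.29). These were the only neighbours whose ranges overlapped, in both groups.

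**Figure D4:**
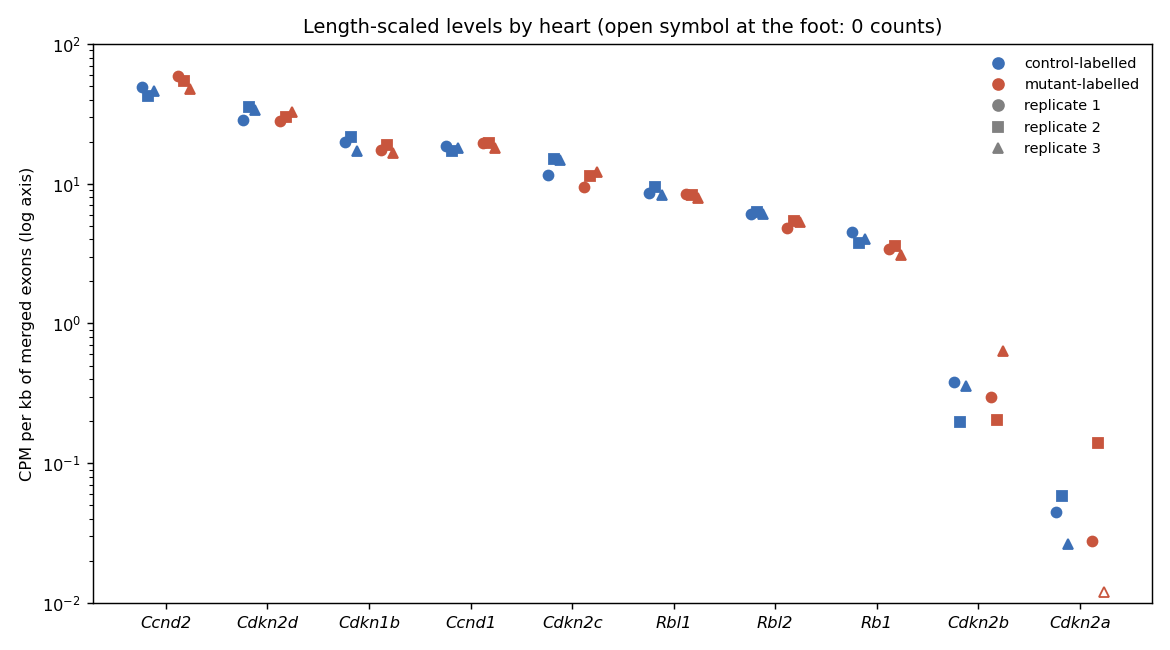
Length-scaled level (CPM per kb of merged exons, log axis) of the 10 genes in each heart, ordered by the control-labelled mean. An open symbol at the foot marks 0 counts. Ccnd2 is highest, Cdkn1b and Ccnd1 overlap, and Cdkn2b and Cdkn2a lie far below the rest.

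The makeup of each family was then compared as the share of each gene in the summed CPM per kb of its family, for 10 shares in all. Cdkn2c made up 28.5, 29.7 and 30.1% of INK4 transcripts in the control-labelled group, against 25.3, 27.0 and 27.0% in mutant-labelled hearts. Its shares did not overlap between the groups, unlike its CPM, and control replicate 1 no longer lay among the mutant-labelled hearts. The mean difference was -3.04 percentage points (exact permutation p = 0.1, Benjamini-Hochberg adjusted p = 0.333 over the 10 shares), and -3.50 to -2.47 when 1 heart was left out. Shares of a family sum to the whole, and Cdkn2b (means 0.683% and 0.893%) and Cdkn2a held little of this one. The Cdkn2d share was therefore nearly fixed by that of Cdkn2c and is not a separate result. It was 69.8 ± 0.655% in the control-labelled group, against 72.6 ± 1.17% in mutant-labelled hearts (SD, n = 3 each, exact permutation p = 0.1, adjusted p = 0.333). The CPM of Cdkn2d overlapped between the groups.

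Among D-type cyclins, Ccnd1 made up 19.1, 19.3 and 19.7% in the control-labelled group, against 17.8, 18.4 and 17.9% in mutant-labelled hearts. Its share was lower in each mutant-labelled heart, although its CPM had a positive log2 fold change, and the mean difference was -1.33 percentage points (exact permutation p = 0.1, adjusted p = 0.333). The shares of Ccnd2 (50.8, 47.8 and 50.4 against 53.9, 51.7 and 46.8%) and Ccnd3 (30.1, 32.9 and 29.9 against 28.4, 29.9 and 35.3%) overlapped. In the pocket protein family Rbl1 made up 46.2 ± 2.11% and 49.0 ± 1.53%, Rbl2 32.1 ± 0.604% and 31.0 ± 1.88%, and Rb1 21.7 ± 2.18% and 20.1 ± 0.965% (SD, n = 3 each), all with overlap. The shares of Cdkn2a and Cdkn2b in the INK4 family overlapped as well.

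**Figure D5:**
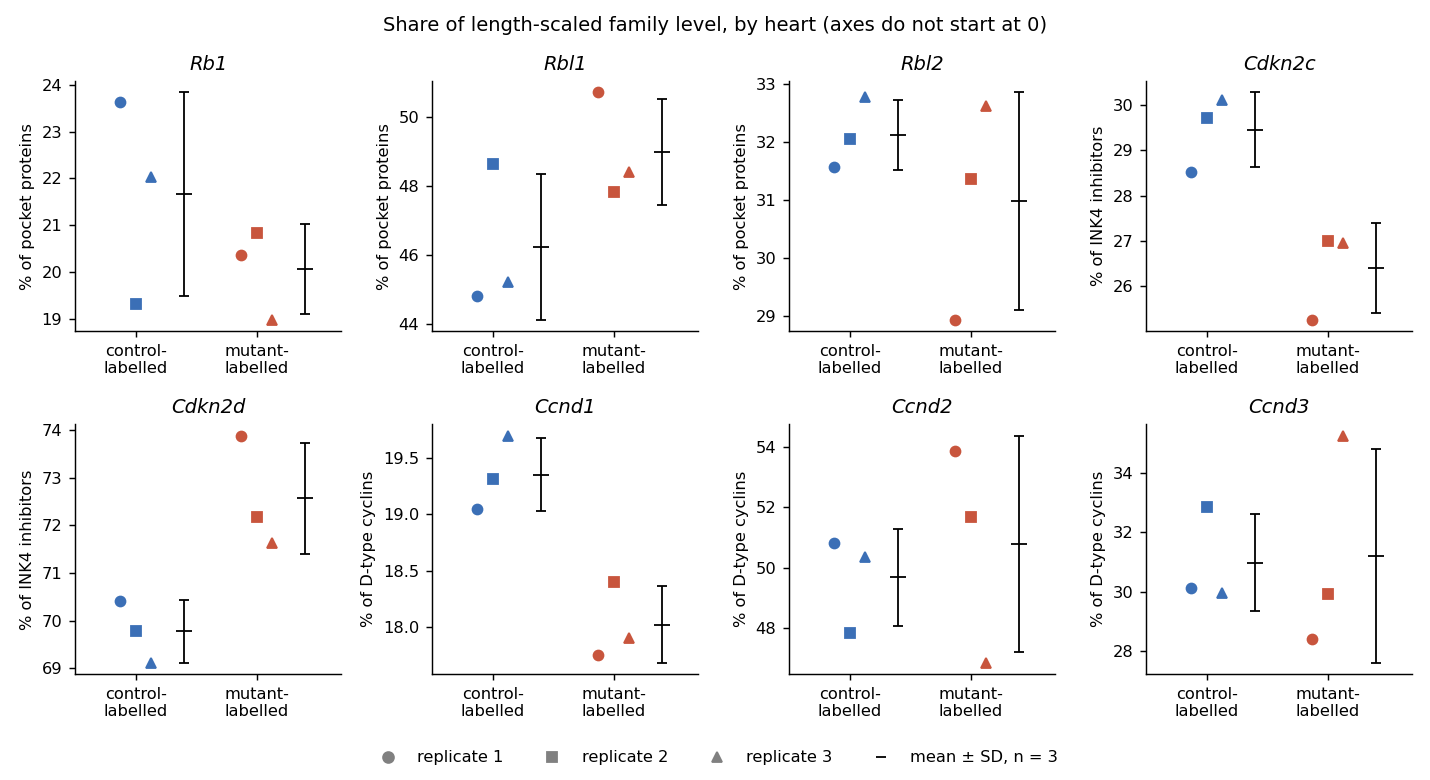
Share (%) of 8 genes in the summed CPM per kb of their family in each heart, with the mean ± SD of 3 hearts. The axes do not start at 0. Cdkn2c and Ccnd1 shares are lower and the Cdkn2d share higher in every mutant-labelled heart, and the other shares overlap. The Cdkn2d share is nearly the complement of the Cdkn2c share.

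The rest of the pathway was described with 6 lists of 68 tested genes around the chosen group. The lists were drawn up with earlier results of these data known, so their shares beside all genes are a description. None of the 68 passed the adjusted threshold in edgeR. DESeq2 called 4, of which 2 were higher, beside 2.52% of all genes called higher and 3.26% called lower. At an unadjusted p under 0.05, 16 of the 68 (23.5%) had higher levels and 3 (4.41%) had lower ones. Over all tested genes these shares were 9.48% and 9.98%. The median log2 fold change of the 68 was 0.02. The groups were apart for 17 of them with higher levels and 5 with lower ones, beside 14.3% and 12.8% of all tested genes. At an unadjusted p under 0.05, the cyclins, kinases and inhibitors beside the chosen group held 5 of 12 higher and 2 lower. Among them Cdk4, the kinase partner of cyclin D, was at 273, 259 and 266 against 302, 308 and 319 CPM, without overlap, with a log2 fold change of 0.22 (SE 0.07) and an adjusted p of 0.17 in edgeR and 0.070 in DESeq2. Cdk6, its close relative, was at 57.3, 61.8 and 67.0 against 63.0, 57.4 and 45.5 CPM (log2 fold change -0.16, adjusted p = 0.48). Ccne1 (0.29, adjusted p = 0.14) and Ccne2 (-0.28, adjusted p = 0.19), which encode the E-type cyclins that act after cyclin D, had log2 fold changes of opposite sign, and Cdc25a, a phosphatase that activates CDK2, had one of 0.25 (adjusted p = 0.15).

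At an unadjusted p under 0.05, 9.48% of all tested genes were higher and 9.98% lower. Of 10 genes that govern the turnover of p27 and cyclin D, 2 reached this threshold, both with higher levels. These were Skp2, which targets p27 for degradation (30.2, 25.4 and 23.8 against 35.3, 34.4 and 31.4 CPM, log2 fold change 0.35, adjusted p = 0.15), and its cofactor Cks1b (0.18, adjusted p = 0.25). Skp2 did not overlap between the groups, in contrast to Cdkn1b itself. Of 11 MuvB subunits and pocket protein partners 2 were higher and none lower at this threshold. By sign alone, 5 of the 11 had positive and 6 negative log2 fold changes. E2f4, the E2F factor most often bound by p107 and p130, was at 32.4, 33.8 and 37.7 against 43.1, 40.3 and 39.7 CPM, without overlap (log2 fold change 0.24, adjusted p = 0.19). Mybl2, which joins the MuvB core when p130 leaves it, had a log2 fold change of 0.27 (adjusted p = 0.13). Of 6 further E2F genes 1 was higher at this threshold, while by sign alone 4 were positive and 2 negative. It was E2f8, an atypical repressor, at 32.4, 29.5 and 31.3 against 41.4, 42.3 and 36.0 CPM (log2 fold change 0.36, adjusted p = 0.11 in edgeR and 0.028 in DESeq2).

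Polycomb complexes, which are known to silence the Cdkn2a and Cdkn2b locus, were covered by 18 subunit genes. At an unadjusted p under 0.05, where 9.48% of all tested genes were higher and 9.98% lower, 4 were higher and none lower. These were Pcgf2 (log2 fold change 0.27), Phc1 (0.31), Ring1 (0.26) and Cbx2 (0.19), each without overlap between the groups and with adjusted p values of 0.13 to 0.23. Bmi1, a Polycomb gene named here after its values were seen, had a log2 fold change of -0.23 (adjusted p = 0.28). Of 11 upstream transcriptional regulators, 2 were higher and 1 lower at the same threshold. Ets2 was at 159, 138 and 169 against 118, 115 and 116 CPM (log2 fold change -0.42, adjusted p = 0.083 in edgeR and 0.0024 in DESeq2). Hmga2, known to keep Cdkn2a low in stem cells, was at 41.3, 19.5 and 24.2 against 61.3, 61.6 and 45.6 CPM (0.99, adjusted p = 0.12), and Mycn, a driver of Ccnd2, had a log2 fold change of 0.23 (adjusted p = 0.25) with overlap.

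For the pair of genes with the smallest unadjusted p, the tested genes with the most similar pattern over the 6 hearts were listed by Pearson's r of log2(CPM + 0.5). For Rbl2 these were Ifi35 (r = 0.996), Gm11488 (0.992) and Igbp1 (0.992), and for Rb1 they were Isl1 (0.988) and Cd9 (0.986). Isl1, a factor of cardiac progenitors, was below 1 CPM in every heart. With 6 hearts in 2 groups and 17125 genes to choose from, such values are a description of these libraries.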

How the data were processed

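RNA from whole hearts of single embryos was sequenced by the authors as paired-end reads from NEBNext Ultra libraries, which do not mark strand. Per the submitters' processing notes and the methods of the study, reads were mapped to GRCm38 (mm10) with STAR 2.4.2a and counted per gene with summarizeOverlaps on GENCODE annotation. The overlap mode and strand setting are not given in the sources used here. The authors deposited raw counts, and a DESeq2 table, from which gene symbols and the mean normalised signal (baseMean, the authors' mean of counts divided by size factors) were read. Its other columns hold the authors' fold changes, errors, statistics and p-values and were not used. Groups and replicate numbers came from the labels. The methods speak of multiple litters and littermate controls, but the labels tie no heart to a litter. The p-values weigh the difference between the groups against the spread among hearts within them. The part of litter in either was not tested.

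Counts were normalised with TMM and tested with edgeR 4.0.16 (limma 3.58.1, R 4.3.3) with genotype as the only term, after filterByExpr (minimum count 10, total 15), which left 17125 of 45792 genes. P-values were adjusted over all of them by the Benjamini-Hochberg method. Single values were compared with two-sided exact permutation tests. Alternatives were DESeq2 (1.42.0 here, with genotype as the only term; the study also used DESeq2), RLE size factors, a filter of 1 count or of a mean of 1 CPM, thinning to the smallest library, a replicate block and leaving out each heart. The edgeR and DESeq2 steps were tested on simulated data with 200 changed genes. Of changes of 1.5-fold, edgeR recovered 25.5% with 3 false calls and DESeq2 47.5% with 36. Of changes of 2-fold they recovered 66.5% and 75%, with 9 and 38 false calls. A gene left uncalled may therefore still differ. Positions and merged exon lengths are from GENCODE vM21 (GRCm38), a later release than that used for counting, and promoters from RefSeq.

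The members and lists were chosen with earlier results of these data known. Named beside the members were Ino80, direct partners (Ccnd3, Cdk4, Cdk6, Cdkn1a, Cdkn1c and E2f4) and pathway genes at an unadjusted p under 0.05, at most 6 per list. For the pair of members with the smallest p, the 3 most similar genes were also named, except 1 that is not reported here. Library totals were 28948836 to 89675692 counts, and confidence intervals are at 95%. Thinning to the smallest library left the SE of Rb1 at 0.10 and that of Ccnd2 at 0.11.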

Additional observations from a re-analysis of the deposited data

How the results depend on the processing

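No member passed an adjusted p of 0.05 under any alternative run. Over all genes, edgeR called 0 higher and 0 lower, against 436 and 564 with DESeq2, 262 and 341 with no filter beyond 1 count, 1 and 13 with the replicate block, and 0 to 320 and 0 to 431 when 1 heart was left out, where the largest counts came without control replicate 1 and 3 were lower without control replicate 2. Members higher at an unadjusted p under 0.05 numbered 0, against 1 with DESeq2 and 1 with no filter beyond 1 count, namely Ccnd2, and 0 to 1 without 1 heart (1 without control replicate 1 and without mutant replicate 3). Members lower numbered 3, and 1 to 3 without 1 heart, with 1 left without mutant replicate 1. Pathway genes called higher numbered 0, against 2 with DESeq2, 2 with no filter beyond 1 count, and 0 to 3 without 1 heart, the 3 without control replicate 1 being Cdkn1c, Hmga2 and Skp2. Those called lower numbered 0, against 2 with DESeq2 and 2 with no filter beyond 1 count. Pathway genes lower at an unadjusted p numbered 3, and 2 to 5 without 1 heart, with 5 when either control replicate 1 or control replicate 3 was left out. The log2 fold change of Cdkn2b turned from 0.21 to -0.015 without control replicate 2 and to -0.29 without mutant replicate 3, and was 0.51 without mutant replicate 2. The cause of these shifts was not tested. Hearts with the same replicate number showed no positive correlation of their deviations from the group means (-0.018, -0.12 and -0.24 over 11779 genes). Whether hearts with different numbers shared a litter was not tested. The replicate block called 0 members. Depth limits Cdkn2a and Cdkn2b.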
